A study of Homo sapiens with 6 samples.

Results

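The BH3-only genes encode the initiator members of the BCL2 family, and their mRNA levels were followed in HCT116 cells with and without oxaliplatin. A total of 8 genes were selected by symbol from the deposited table of 27942 genes, namely BBC3 (which encodes PUMA), PMAIP1 (NOXA), BID, BIK, BCL2L11 (BIM), BAD, BMF and HRK. Each symbol matched 1 row, and all 8 passed the filter on low counts, as did 13727 genes in all. HCT116 is an established human colorectal carcinoma line with wild-type p53, and oxaliplatin is a platinum compound that forms adducts on DNA. RNA was sequenced from 3 libraries of untreated cells (NT) and 3 libraries of cells exposed to 0.5 µM oxaliplatin for 24 h (OXA), both grown in RPMI with serum at moderate confluence, and the libraries were made from polyadenylated RNA with a stranded kit. The replicates are numbered 1 to 3 in each group, and the labels do not say whether these came from separate cultures, so that p-values measure the spread between these libraries. Only 1 cell line, 1 dose and 1 time point were sequenced, and a vehicle control is not named. The question asked here was which of the initiators of mitochondrial apoptosis changed in transcript abundance.

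BH3-only proteins carry a single short helix, the BH3 domain, with which they occupy the groove of pro-survival proteins such as BCL2, BCL-XL (encoded by BCL2L1) and MCL1, or contact BAX and BAK directly. Once BAX and BAK are free to assemble pores in the outer mitochondrial membrane, cytochrome c escapes and caspases are activated. Each BH3-only protein is known for its own upstream signal: BBC3 and PMAIP1 are classical transcriptional targets of p53, BID is cleaved by caspase-8, BAD and BIM are controlled by phosphorylation, BMF and BIM are held on motor complexes by dynein light chains, and HRK is best known from neurons. PUMA, BIM and the cleaved form of BID bind all pro-survival proteins, whereas NOXA prefers MCL1 and BAD prefers BCL2, BCL-XL and BCL-w.

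Because the p53 response is the best known route from damaged DNA to this family, the sequence around the start of each gene was searched for the p53 full-site consensus, 20 bases made of 2 adjoining copies of a 10-base motif, each around a core of C, 2 bases that are A or T, and G. A site was counted when both cores were intact, no spacer lay between the copies and at most 3 bases departed from the consensus, within 2000 bases of the start of the canonical transcript on either side. The consensus reads the same on both strands, so that 1 strand covers both. Such a site was present at 3 of the 8 genes, and all 3 sites are shown. These 3 genes also had the highest log2 fold changes of the family, and whether the sites have a part in those values was not tested. The sites are written 5′ to 3′ on the strand of the gene, with the cores in capitals.
BBC3, chr19:47231320-47231339 of hg38, minus strand, centred at -131 from the start: ctgCAAGtcctgaCTTGtcc
PMAIP1, chr18:59899549-59899568 of hg38, plus strand, centred at -438: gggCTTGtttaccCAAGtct
BIK, chr22:43112688-43112707 of hg38, plus strand, centred at 1947: agaCTAGactgggCTAGacc
The BBC3 site departed from the consensus at 3 bases, and the sites of PMAIP1 and BIK at 2 bases each. The same search found a site at 1183 of the 13675 tested genes with an annotated start (8.65%), and at 5 of 12 well known p53 targets outside the BCL2 family. With at most 2 departures, 1.62% of all genes held one. A match describes letters only, and its absence at BID, BCL2L11, BAD, BMF and HRK says only that no such run lies within this window.

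BCL2L11 is the best known FOXO target of the family, and its upstream bases are shown for that reason. Of the 8 genes, 7 had an entry in the RefSeq table of gene starts (BIK had none), and the letters GTAAACA, the core that FOXO factors recognise, were sought on both strands in the 250 bases before each start. They were present in the window of BCL2L11 and in none of the windows of the other 6 genes, compared with 1046 of all 35116 windows (2.98%). The stretch of 60 bases that holds them lies at chr2:111120665-111120724 of GRCh38.p14, on the plus strand, with the core in capitals beginning at -223 from the start.
BCL2L11: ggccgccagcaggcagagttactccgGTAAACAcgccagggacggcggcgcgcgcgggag

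PMAIP1 was the only member called higher after oxaliplatin, at a log2 fold change of 0.58, and none was called lower. The estimates lay on both sides of 0, with 5 above and 3 below, from -0.61 for BMF to 1.31 for BBC3, neither of which passed the test. A gene was called when its edgeR quasi-likelihood p, adjusted by Benjamini-Hochberg over all 13727 genes tested, was under 0.05. Thus 1 of 8 members was called higher where 2.78% of all genes were, and 0 of 8 lower where 2.29% were. At an unadjusted p under 0.05 there were 5 of 8 members (BBC3, PMAIP1, BIK, BCL2L11 and BMF), and 2980 of all 13727 genes. The median log2 fold change of the members was 0.20, compared with 0.023 over all genes tested. When replicates were blocked by number in the fit, 3 members were called higher (BBC3, PMAIP1 and BIK), where 12.1% of all genes were, and 1 was called lower (BCL2L11), where 10.9% were. The numbers are taken from the labels. Over all genes tested, deviations of the NT and the OXA library from their group means correlated at 0.48, 0.47 and 0.26 for numbers 1, 2 and 3. In bulk RNA a lower value may come from fewer cells that express a gene or from less RNA per cell, and these cannot be told apart.

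**Figure D1:**
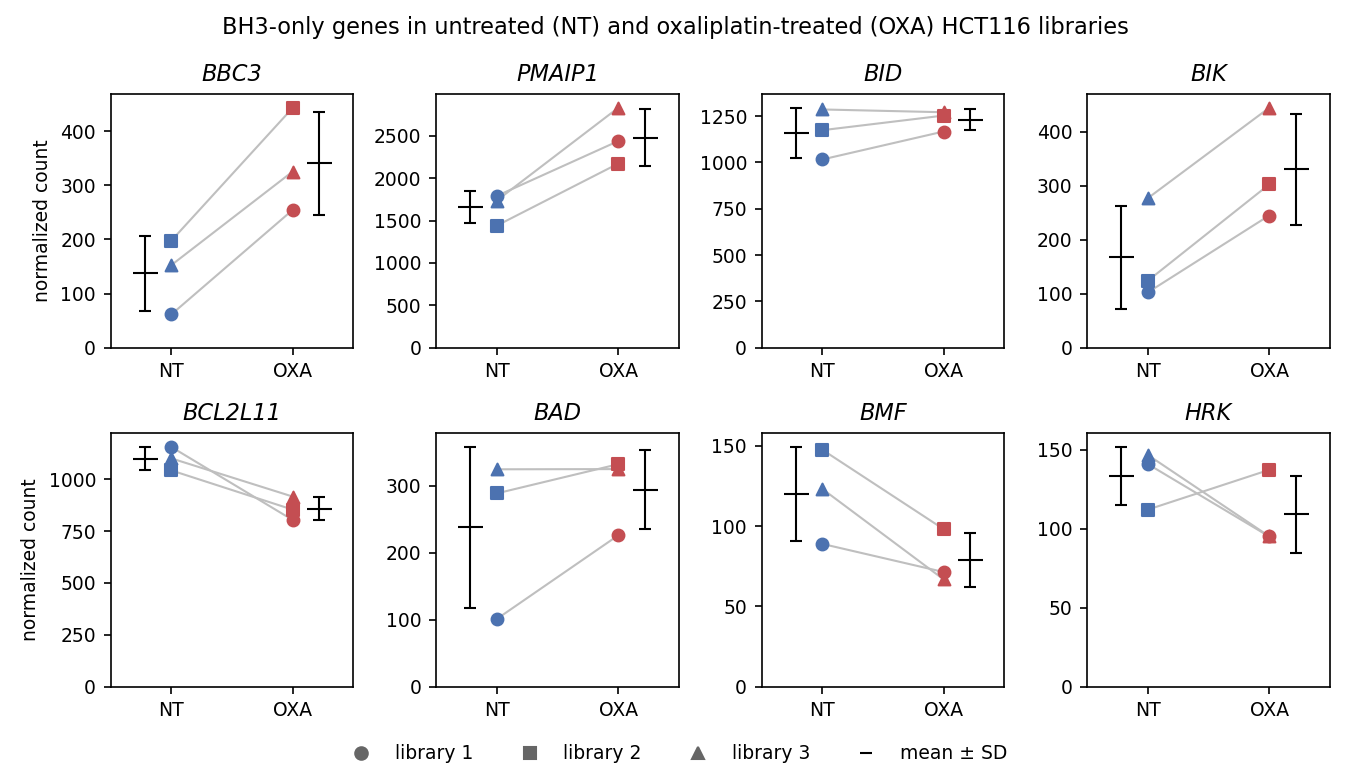
Normalized counts (y axis, linear from 0) of the 8 BH3-only genes in NT and OXA libraries (x axis), with a marker for each replicate number, grey lines joining libraries of the same number, and bars for mean ± SD (n = 3). All 3 OXA libraries lie above all NT libraries for BBC3 and PMAIP1 and below them for BCL2L11, whereas the groups overlap for the other 5 genes.

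Among the p53-linked members, PMAIP1 (ENSG00000141682, chromosome 18 from 59899996 to 59904305, plus strand) rose. NOXA, its product, is the partner of MCL1 and hands it over for degradation. Its normalized counts, which are raw counts scaled by 1 factor per library (TMM), were 1790, 1440 and 1736 in NT libraries 1 to 3 and 2437, 2171 and 2829 in OXA libraries 1 to 3. Every OXA library was above every NT library, which was so for 14.5% of all genes tested. The mean went from 1655 ± 188.1 (SD, n = 3) to 2479 ± 331.1, or 0.58 on the log2 scale (95% interval 0.28 to 0.89, standard error 0.13, edgeR adjusted p = 0.0496). This p lay close to the threshold: it was between 0.0504 and 0.0749 with 4 other ways of scaling the libraries, 2 other filters on low counts or limma-voom. The block moved it to an edgeR adjusted p of 0.00578 and left the estimate at 0.58. The PMAIP1 ratio of OXA to NT, taken between libraries of the same number, was 0.44, 0.59 and 0.70 on the log2 scale for numbers 1, 2 and 3.

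BBC3 (ENSG00000105327, chromosome 19 from 47220822 to 47232766, minus strand) had the largest fold of the family. Its product PUMA binds every pro-survival protein and is a main effector of p53-dependent cell death. Normalized counts were 61.3, 198 and 152 in NT and 254, 443 and 325 in OXA, so that the lowest OXA library was above the highest NT library. The NT libraries themselves differed by more than 3-fold, with library 1 the lowest. The mean went from 137 ± 69.3 (SD, n = 3) to 341 ± 95.2, a 2.48-fold difference (log2 1.31, standard error 0.40, 95% interval 0.38 to 2.24). BBC3 missed the threshold at an edgeR adjusted p of 0.107. Blocking by number gave an estimate of 1.39 on the log2 scale (standard error 0.20), and BBC3 was then called (edgeR adjusted p = 0.00958). Between same-numbered libraries the log2 ratio was 2.05, 1.17 and 1.09, all in the same direction. DESeq2, the package used by the study, gave BBC3 a log2 fold change of 1.32 with a DESeq2 adjusted p of 0.00470 and called PMAIP1 as well, where it called 4.43% of all genes higher.

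BIK (ENSG00000100290, chromosome 22 from 43110750 to 43129712, plus strand) encodes an endoplasmic reticulum protein of this class. Its normalized counts were 102, 124 and 277 in NT and 245, 302 and 444 in OXA. The groups overlapped, since NT library 3 exceeded OXA library 1, and yet OXA was above NT within each number, by 1.26, 1.29 and 0.68 on the log2 scale. The mean went from 168 ± 95.04 (SD, n = 3) to 330.1 ± 102.5 (log2 fold change 0.98, 95% interval 0.060 to 1.89, standard error 0.39, edgeR adjusted p = 0.205). NT library 3 weighed on this value: without it the estimate for BIK was 1.52 (edgeR adjusted p = 0.0738), whereas without NT library 1 it was 0.72 (0.226). BIK was called when numbers were blocked, with an estimate of 1.05 (standard error 0.16, edgeR adjusted p = 0.0105).

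BCL2L11 (ENSG00000153094, chromosome 2 from 111119378 to 111168444, plus strand) went the other way. BIM, its product, is the initiator that responds to loss of growth factor signalling. Normalized counts were 1156, 1043 and 1101 in NT and 804, 854 and 917 in OXA, with every OXA library below every NT library, which was so for 14.4% of all genes. The mean went from 1100 ± 56.4 (SD, n = 3) to 858 ± 56.6 (log2 fold change -0.36, 95% interval -0.60 to -0.12, standard error 0.10, edgeR adjusted p = 0.0924). Blocking by number left the estimate at -0.36 and made it a call (edgeR adjusted p = 0.0301). The same-numbered log2 ratios were -0.52, -0.29 and -0.26. BCL2L11 shares 727 exonic bases with MIR4435-2HG on the opposite strand, which itself had between 496 and 810 counts per library, and the strand setting of the authors' counting is not given in the sources used here, so that reads from these 2 genes may not be separated.

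BMF (ENSG00000104081, chromosome 15 from 40087890 to 40108892, minus strand), the other member tethered by dynein light chains, had low counts. They were 88.9, 148 and 123 in NT and 71.4, 98.1 and 66.8 in OXA, and 2 of the OXA libraries lay below all of NT. The mean went from 120 ± 29.5 (SD, n = 3) to 78.8 ± 16.9 (log2 fold change -0.61, 95% interval -1.196 to -0.019, standard error 0.25, edgeR adjusted p = 0.217). OXA was below NT within each number, by log2 ratios of -0.32, -0.59 and -0.88, and the block brought the edgeR adjusted p to 0.0524. BMF shares 461 exonic bases with the antisense gene BMF-AS1, which has no row in the table.

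In BID, BAD and HRK the difference between the groups was smaller than the spread among their libraries. BID (ENSG00000015475, chromosome 22 from 17734138 to 17774770, minus strand), the link from death receptors to mitochondria, had 1016, 1174 and 1286 normalized counts in NT and 1167, 1253 and 1271 in OXA. Its values in OXA fell within the range of NT in every library, and the 95% interval of its log2 fold change, -0.18 to 0.35, was the narrowest of these 3 genes (estimate 0.087, edgeR adjusted p = 0.720). BAD (ENSG00000002330, chromosome 11 from 64269830 to 64284704, minus strand), which is switched off by AKT and other kinases, had 101, 289 and 325 normalized counts in NT and 226, 333 and 325 in OXA. NT library 1 was far below the other 5 libraries, and without it the log2 fold change of BAD went from 0.30 (95% interval -0.61 to 1.22, edgeR adjusted p = 0.711) to -0.058. BAD shares 404 exonic bases with GPR137 on the opposite strand, which had between 105 and 274 counts. HRK (ENSG00000135116, chromosome 12 from 116856144 to 116881441, minus strand) had 141, 112 and 147 normalized counts in NT and 95.2, 137 and 95.3 in OXA, with OXA above NT for number 2 and below it for the other numbers (log2 fold change -0.29, 95% interval -0.79 to 0.21, edgeR adjusted p = 0.494). None of these 3 was called with the replicate block (edgeR adjusted p between 0.237 and 0.388).

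**Figure D2:**
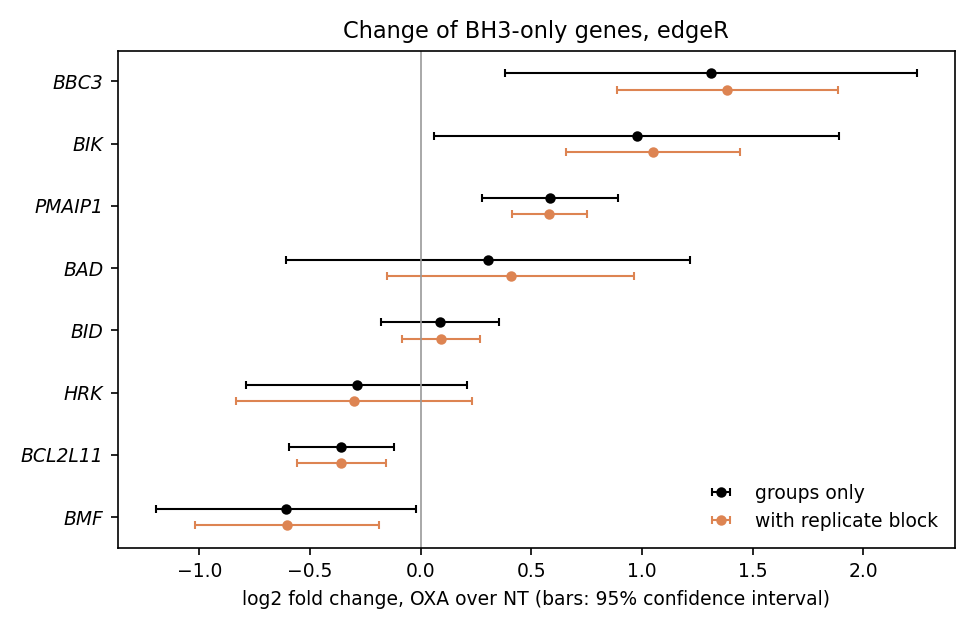
Log2 fold change of OXA over NT (x axis) for each BH3-only gene (y axis), with 95% confidence intervals as bars, from the edgeR fit on the groups only (black) and blocked by replicate number (orange). The block narrows the interval of BBC3 from 0.38 to 2.24 down to 0.89 to 1.88 and that of BIK from 0.060 to 1.89 down to 0.66 to 1.44, while the intervals of BID, BAD and HRK include 0 in both fits.

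The members with the widest intervals, BBC3, BIK and BAD, were also those with the most GC. NT library 1 differed from NT libraries 2 and 3 along the GC content of the canonical transcript: over all genes, the median log2 ratio of library 1 to the mean of the other NT libraries was 0.23 below 40% GC and -1.21 above 65%. BBC3 (69.7% GC) had a ratio of -1.51, BAD (65.8%) of -1.60 and BIK (55.9%) of -0.97, although NT libraries 1 and 2 of BIK were alike (102 and 124 normalized counts) and library 3 stood above both (277). In PMAIP1, the member poorest in GC (36.7%), the ratio was 0.17, and in BCL2L11 (45.5%) it was 0.11. BMF (54.7%) was at -0.61, BID (48.0%) at -0.28 and HRK (49.6%) at 0.12. For BBC3, BAD and BIK, OXA library 1 was the lowest of the OXA libraries too. This was not particular to them, since OXA library 1 was also the lowest for BID, BCL2L11 and HRK, which have less GC. It was not the lowest for PMAIP1 or BMF.

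**Figure D3:**
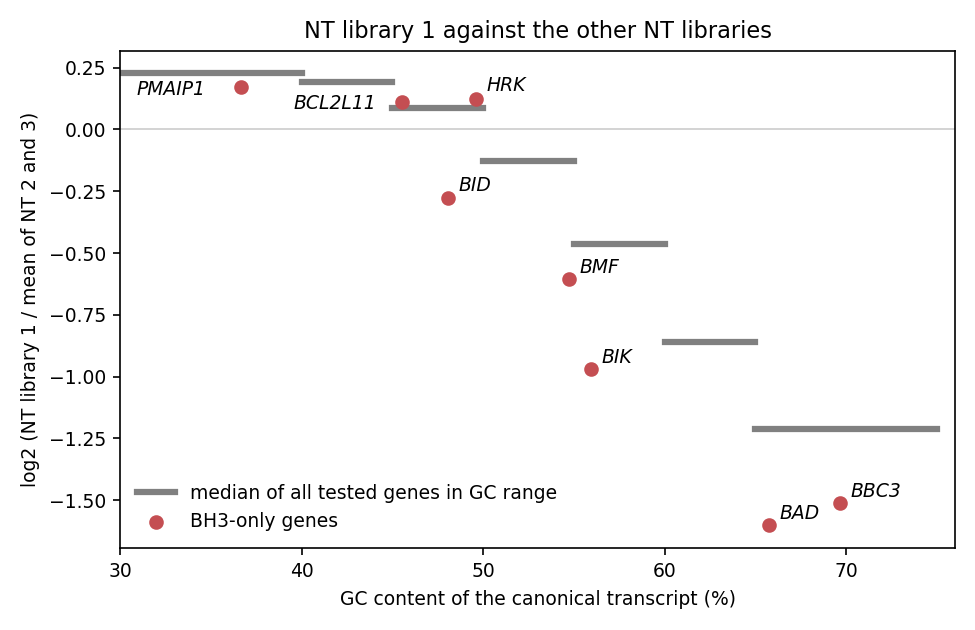
Log2 ratio of NT library 1 to the mean of NT libraries 2 and 3 (y axis) against the GC content of the canonical transcript in percent (x axis), for the 8 BH3-only genes (red points) and as the median of all tested genes in each GC range (grey lines). The medians go from 0.23 below 40% GC to -1.21 above 65%, and BBC3 and BAD lie lowest, at -1.51 and -1.60.

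Values with NT library 1 left out, or with GC taken into account, are therefore given for each call. Without NT library 1, PMAIP1 and BBC3 were called (edgeR adjusted p = 0.0219 and 0.0424), 2 of 8 members where 4.49% of all genes were called higher, and the log2 fold change of BBC3 was 0.96 in place of 1.31. When trends on GC content and on transcript length were removed from every library and the replicate block was kept, 3 members were called higher (BBC3, PMAIP1 and BIK) where 23.2% of all genes were, and 2 were called lower (BCL2L11 and BMF) where 22% were. The log2 fold changes in that fit were 1.10 for BBC3 (edgeR adjusted p = 5.26e-05), 0.85 for BIK (0.000720), 0.65 for PMAIP1 (6.37e-06), -0.30 for BCL2L11 (0.00322) and -0.67 for BMF (0.00576). The directions of these 5 genes, and of BID, were the same in all 18 alternative fits, whereas BAD turned to -0.058 without NT library 1 and HRK to 0.010 with the authors' own gene-specific scaling. Leaving out any library other than NT library 1 left no member called, and the edgeR adjusted p of PMAIP1 then lay between 0.0943 and 0.175.

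**Figure D4:**
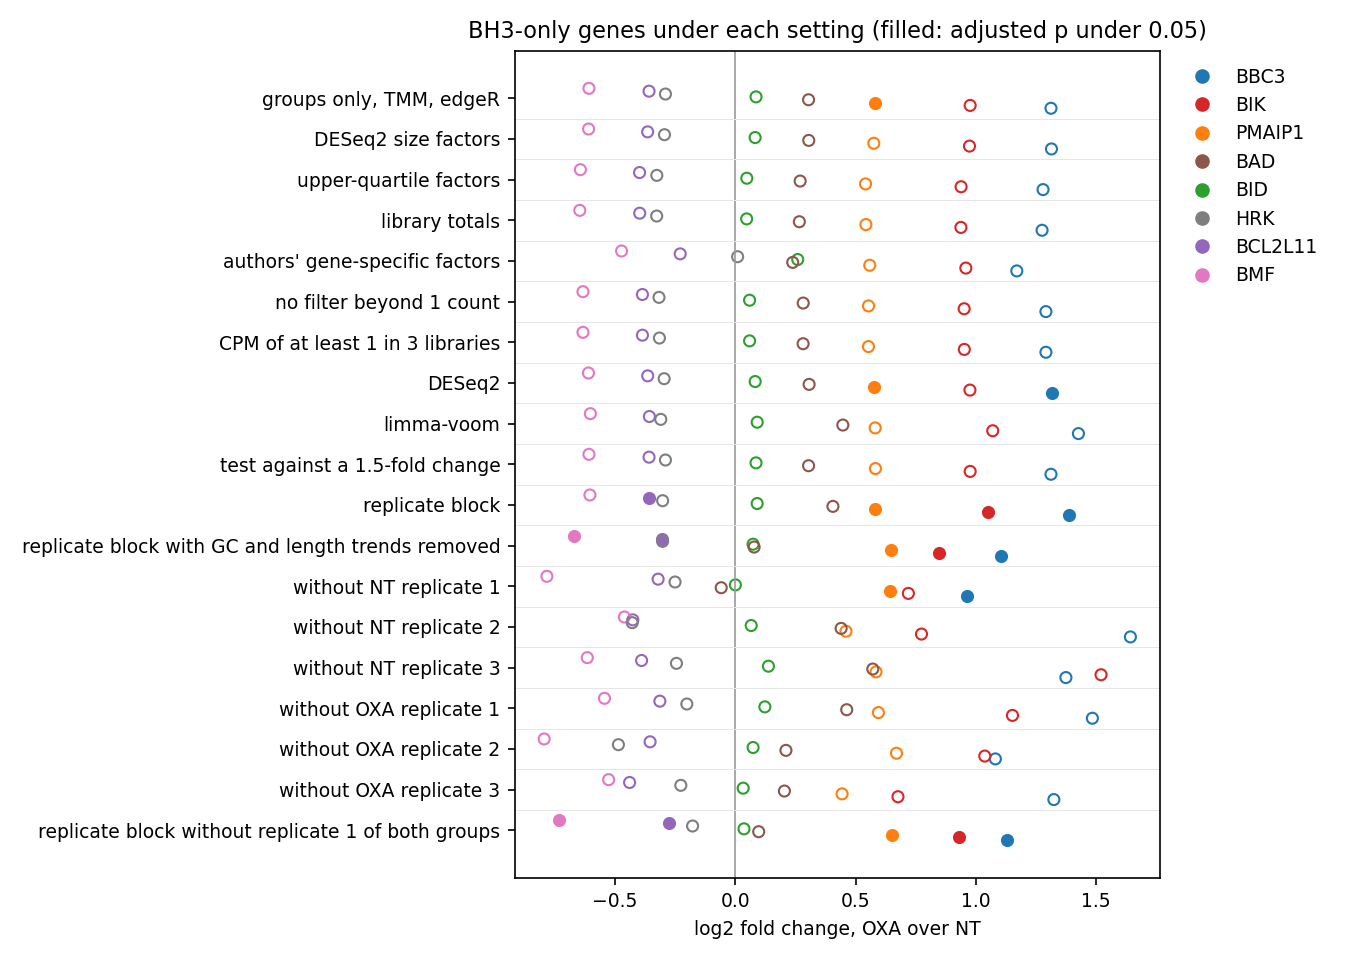
Log2 fold change of OXA over NT (x axis) of the 8 BH3-only genes (colors) in the reported fit, on the top row, and in each alternative (y axis), with filled points where the adjusted p was under 0.05. BBC3, BIK and PMAIP1 stay right of 0 and BCL2L11 and BMF left of 0 in every row, while BAD crosses to -0.058 without NT replicate 1 and HRK reaches 0.010 with the authors' factors.

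To compare the genes with each other, counts were divided by the length of all annotated exons of a gene and by the library size (RPKM). On this scale PMAIP1 was the most abundant member in both groups, at 21.1 ± 2.39 RPKM in NT and 31.5 ± 4.21 in OXA (mean ± SD, n = 3), and its libraries did not overlap with those of the next gene. BID had 7.29 ± 0.852 RPKM in NT and 7.74 ± 0.349 in OXA. BIK went from 4.89 ± 2.78 to 9.65 ± 3.00 RPKM, BCL2L11 from 4.54 ± 0.232 to 3.54 ± 0.233 and BAD from 3.88 ± 1.95 to 4.79 ± 0.967. In NT each of these 4 genes overlapped with its neighbour in the order, and in OXA BIK overlapped with BID, and BAD with BCL2L11. BBC3 came next, at 1.196 ± 0.605 RPKM in NT and 2.97 ± 0.830 in OXA, and overlapped with BAD in NT and with BCL2L11 in OXA, even though its fold was the largest of the family. BMF and HRK were the lowest, at 0.612 and 0.541 RPKM in NT and 0.402 and 0.443 in OXA, and overlapped with each other in both groups and, in NT, BMF with BBC3. With the length of the canonical transcript in place of all exons, PMAIP1 stayed first (24.2 RPKM in NT, 36.3 in OXA) and BID second (14.8 and 15.7), and BMF and HRK stayed last, whereas BAD took the third place in NT at 7.13 RPKM. Thus PMAIP1 made up 48.2% of the summed RPKM of the 8 genes in NT and 51.7% in OXA, BBC3 2.71% and 4.91%, and BCL2L11 10.4% and 5.82%.

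The balance between members with higher and with lower values in OXA was also read within each library, as a ratio of raw counts. A scaling factor common to all genes of a library cancels in such a ratio. The GC trend of NT library 1 does not cancel where the genes of a pair differ in GC, as BBC3 (69.7%) and BMF (54.7%) do. The pairs were taken after the values above had been seen. PMAIP1 over BCL2L11 was 1.55, 1.38 and 1.58 in NT and 3.03, 2.54 and 3.09 in OXA. BBC3 over BMF was 0.690, 1.34 and 1.24 in NT and 3.56, 4.51 and 4.87 in OXA. Both ratios pair a member that was higher in OXA with one that was lower, so that their separation follows from that choice, and no p is given for any of the ratios. Against the pro-survival partner of NOXA, PMAIP1 over MCL1 was 0.214 ± 0.0134 (SD, n = 3) in NT and 0.287 ± 0.0251 in OXA. BCL2L11 over BCL2L1 went from 0.149 ± 0.0268 to 0.0632 ± 0.00489. Its lack of overlap follows from the choice too, since BCL2L11 was below and BCL2L1 above all of NT in every OXA library. BBC3 over BCL2L1 overlapped between the groups, at 0.0176 ± 0.00738 in NT and 0.0250 ± 0.00653 in OXA, and so did BAD over BCL2L1 (0.0308 and 0.0217).

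The proteins that BH3-only members bind moved as follows. Of 6 pro-survival genes, 4 were tested, 1 was called higher and 0 lower, and the median log2 fold change was 0.19. BCL2L1, which encodes BCL-XL, was the one called, going from 7515 ± 928 normalized counts (SD, n = 3) to 13580 ± 294 (log2 fold change 0.85, edgeR adjusted p = 0.00803). The log2 fold change of MCL1 was 0.16 (edgeR adjusted p = 0.391), that of BCL2 -0.48 (0.123, with the block 0.0497) and that of BCL2L2 0.22 (0.217, with the block 0.0474). BCL2A1 and BCL2L10 had at most 1 count in any library and were not tested. Of the 3 pore-forming genes BAX was called higher (log2 fold change 1.195, edgeR adjusted p = 0.0258), BAK1 was called with the block alone (0.62, edgeR adjusted p = 0.104 and 0.00825 with the block), and BOK was at -0.060 (0.916). The 7 genes of proteins with a BH3-like stretch outside the core family gave 2 called higher, namely the mitophagy receptor BNIP3 (0.59, edgeR adjusted p = 0.0223) and the autophagy protein BECN1 (0.40, edgeR adjusted p = 0.0495), 0 called lower and a median of 0.13.

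**Figure D5:**
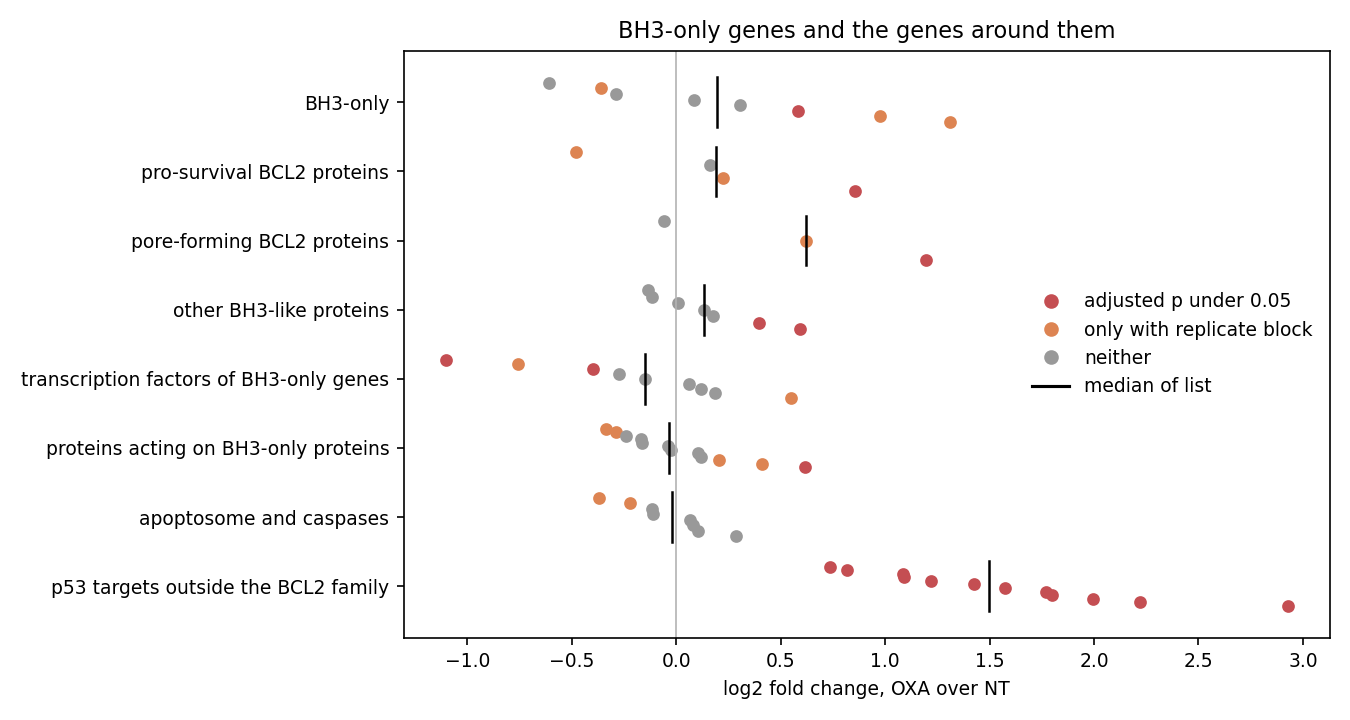
Log2 fold change of OXA over NT (x axis) for each tested gene (points) of the BH3-only family and of 7 lists of genes around it (y axis), with the list median as a vertical line and colors for genes called by the edgeR test, only with the replicate block, or by neither. The 12 p53 targets outside the family all lie between 0.74 and 2.93, whereas the BH3-only genes spread from -0.61 to 1.31 with a median of 0.20. All lists were chosen with earlier results of these data known.

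Regulators of the BH3-only genes and proteins were read from lists of the same kind. Among 9 genes of transcription factors known to act on the family, 0 were called higher and 2 lower, and the median was -0.15. E2F1 was lower (log2 fold change -1.10, edgeR adjusted p = 0.00858), and so was ATF4, the stress factor upstream of PMAIP1 and BBC3 (-0.40, edgeR adjusted p = 0.0443). FOXO3 was at 0.063 (edgeR adjusted p = 0.694) and FOXO1 at -0.15 (0.465). TP73 was at -0.75 (edgeR adjusted p = 0.136, with the block 0.00609) and MYC at 0.55 (0.0655, with the block 0.0131). Of 12 genes whose products cleave, phosphorylate or tether BH3-only proteins, 1 was called higher, the BAD kinase PIM2 (0.62, edgeR adjusted p = 0.0236), and 0 lower, at a median of -0.033. CASP8, which cleaves BID, was at 0.41 (edgeR adjusted p = 0.0850, with the block 0.0105).

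All 12 p53 targets outside the BCL2 family were called higher, where 2.78% of all genes tested were, with a median of 1.499 and a range from 0.74 to 2.93. This list was chosen with earlier results of these data known, so that its count of calls is a description and not an independent result. CDKN1A, the cell cycle inhibitor p21, was at 2.93 and MDM2, the ligase that degrades p53, at 2.22 (edgeR adjusted p = 0.000445 for each). The log2 fold changes of PMAIP1 (0.58) and BBC3 (1.31) stood below and within that range, respectively. Downstream of the mitochondria, 0 of 8 genes of the apoptosome and its caspases were called in either direction (median -0.022, 1 with an unadjusted p under 0.05 by edgeR). With the replicate block XIAP, an inhibitor of caspases, was called lower, at -0.22 (edgeR adjusted p = 0.0462).

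The genes whose levels ran most closely with each member over the 6 libraries were taken by Pearson's r of log2 CPM (counts scaled to a common library size) among 12065 genes, as a description with no test, since 6 points share their treatment and the GC trend of the libraries. For BBC3 these were PRKAR1B (r = 1.00), C12orf10 (0.999) and PWP2 (0.998). For PMAIP1 they were PNMA1, COPS5 and GPR143 (0.999 to 0.995), and for BIK PEF1, DUBR and CSF2RA (0.991 to 0.990). BCL2L11 ran with EPB41L4A-AS1, DUT and PRIMPOL (0.993 to 0.991), and BMF with CACNA2D2, HES1 and TCF7 (0.996 to 0.992). BID ran with ECHS1, GSTT2B and ACP2 (0.996 to 0.994) and BAD with DPM2 and MSRB1 (0.998 each). HRK had 1 close neighbour, FGGY (0.999), followed by TMEM81 (0.933) and GSTM4 (0.901).

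Facts of the whole table bear on these values as follows. Library totals lay between 32979521 and 40967880 counts, and the raw counts of the members lay between 60 (BBC3 in NT library 1) and 3175 (PMAIP1 in OXA library 3), so that none was at the floor of 3 counts. All 6 epithelial markers were detected, with a sum between 2148 and 3089 CPM in NT and between 3495 and 4134 in OXA, and 0 of 6 were called. KRT8, KRT18 and KRT19 were above NT in every OXA library and were called higher with the block, CDH1 was called lower with it, and the part of this in the values of the BH3-only genes was not tested. The 6 markers of leukocytes, endothelium and fibroblasts summed to between 3.69 and 8.55 CPM, mostly from COL1A1, while PTPRC, CD3E and COL1A2 had at most 2 counts in any library.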

How the data were processed

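RNA-seq values of 6 HCT116 libraries were used. The authors deposited raw counts per gene and library, which are whole numbers, and a normalized signal, which equals the count times a factor specific to both gene and library. The submitters' processing notes name Trimmomatic 0.32, STAR 2.7.5b, RSEM 1.3.3, DESeq2 2.13 and GRCh38, and the paper's methods give mapping with STAR and testing with DESeq2. The counting step, its annotation and its strand setting are not given in the sources used here, so the whole numbers may be rounded estimates. The raw counts were tested as deposited. The signal served only as an alternative.

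Genes passed edgeR's filterByExpr (minimum count 10, total 15). Counts were scaled by TMM and tested by edgeR's quasi-likelihood test (edgeR 4.0.16, limma 3.58.1, R 4.3.3), with DESeq2 1.42.0 and limma-voom as alternatives. Standard errors are the estimate over the root of its F statistic. Adjustment (Benjamini-Hochberg) ran over all 13727 genes, of which 381 were higher and 315 lower. In simulated counts with 200 genes changed 4-fold for OXA against NT (13609 genes tested), edgeR recovered 196 with the right sign, and 12 of 208 calls were false. With differences between same-numbered pairs simulated as well (13623 genes), the fit without the block recovered 197 of 200, with 0 of 197 calls false. The block recovered 200 of 200, with 5 of 205 calls false. These pair differences were drawn for each gene separately, without a GC trend and with the same dispersion for all genes. The simulated 4-fold change exceeds the largest fold of a member (2.48, BBC3), so recovery at the folds of the members was not tested.

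Replicate numbers come from the labels, which do not say what they mark. Deviations of same-numbered libraries from their group means correlated at 0.48, 0.47 and 0.26 over the genes tested, all above the limit of 0.1, and those of different numbers at between -0.41 and 0.076. Blocked values are printed beside results whose call they change.

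The BH3-only genes and the lists were chosen with earlier results of these data known. Named are all 8 members, genes of the lists (called or non-overlapping ones first), for each member the 3 genes with the highest correlation among those averaging 50 normalized counts or more, and genes overlapping a member. A few genes named by this rule are not reported here. DIABLO had 2 identifiers and the first was used. Positions, lengths and GC content are from GENCODE on GRCh38, and upstream sequence is from RefSeq (GRCh38.p14). GC content and length were known for 99.6% of tested genes. Intervals and floors cover counting error only where stated for counts, and PCR duplicates were not distinguishable. Alternatives were other scaling factors, filters and tests, the block, the block with GC and length trends removed, each library left out, and, chosen after seeing the data, the block without replicate 1 of both groups. Protein measurements of the study were not analysed here.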

Additional observations from a re-analysis of the deposited data

How the results depend on the processing

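The number of BH3-only genes called, 1 in the reported fit, went to 0 with DESeq2 size factors, upper-quartile factors, library totals, the authors' gene-specific factors, no filter, a CPM filter, limma-voom or a test against a 1.5-fold change. It was 2 with DESeq2, 4 with the replicate block, 5 with the replicate block after removal of GC and length trends, and 5 with the replicate block without replicate 1 of both groups, a setting chosen after seeing the data that leaves 1 residual degree of freedom per gene. Leaving out 1 library gave between 0 and 2, with 2 only without NT replicate 1. Over all genes, the 696 calls became 441 with the authors' factors, 1175 with DESeq2, 50 against a 1.5-fold change, 3157 with the replicate block, 6208 with GC and length trends removed too, 5739 with the replicate block without replicate 1 of both groups, and between 85 and 1194 with 1 library left out. Of the values of single members, 116 kept their direction and side of the threshold, 13 lost a call (all of PMAIP1) and 13 gained one. The sign turned for BAD without NT replicate 1 (-0.058, leaving out 1 library giving -0.058 to 0.57) and for HRK with the authors' factors (0.010). The cause of these shifts was not tested. The standard errors of BBC3, BIK and BAD, 0.40, 0.39 and 0.39 on the log2 scale, limit what 3 libraries a group resolve without the block.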
